A study of Mus musculus with 44 samples.

Results

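The genes described here encode the pore-forming and accessory subunits of potassium, calcium, sodium and pacemaker channels and the connexins of gap junctions. They were chosen by symbol: every gene of the array annotation whose symbol began with Kcn, Cacn or Hcn, with Scn and a digit, or with Gja, Gjb or Gjc and a digit. This gave 107 genes out of 12394 with a probe set of their own, namely 62 Kcn, 23 Cacn, 11 connexin, 9 Scn and 2 Hcn genes. They were sorted by textbook knowledge into 27 cardiac-expressed genes, 7 genes of vessel wall or immune cells, 56 genes of families not counted among those of heart muscle (neuronal, lens, liver, skin, kidney or skeletal muscle forms, called the silent families below), and 17 others.

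The measurements came from left ventricles of mice, each hybridised to 1 Affymetrix mouse 430A 2.0 array. PKCε mice carried a constitutively active rabbit protein kinase C epsilon (A159E) under the mouse Myh6 promoter, which is active in cardiomyocytes, on an FVB/N background, and nontransgenic FVB/N mice bought from a commercial breeder were the controls. From 3 months of age the mice received either nonimmune mouse immunoglobulin (IgG) or FG-3149, which binds the matricellular protein CTGF (connective tissue growth factor), by intraperitoneal injection 2 times a week at 30 mg/kg for 3 months, and tissue was taken at 6 months. There were 10 FVB/N mice with IgG (7 female), 12 FVB/N mice with FG-3149 (6 female), 10 PKCε mice with IgG (5 female) and 12 PKCε mice with FG-3149 (6 female). Every mouse received an antibody, so no group shows the untreated ventricle, and the line and the supplier of the mice cannot be told apart from the transgene. Mouse numbers ran from 420 to 443 in FVB/N mice with IgG and from 338 to 349 with FG-3149. In PKCε mice they ran from 192 to 362 with IgG and from 38 to 191 with FG-3149. These ranges do not overlap within a genotype or within an antibody. Anything that followed mouse number therefore cannot be told apart from the antibody, or from the transgene in either transgene comparison.

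The cardiac action potential is set by a sequence of currents: sodium channels start it, L-type calcium channels hold the plateau and trigger contraction, and several potassium channels end it. In the mouse ventricle the transient outward current, carried by pore subunits such as Kcnd2 and Kcnd3 with the accessory subunit Kcnip2, dominates early repolarisation, while inward rectifiers hold the resting potential. Connexins join neighbouring cells electrically, Cx43 (Gja1) in the working ventricle, Cx40 (Gja5) in atrium and conduction system, and Cx45 (Gjc1) at low level in the conduction system and in the embryonic heart. Potassium channel loss and altered connexin expression are well-known features of hypertrophied and failing hearts.

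Each value below is the log2 of the deposited ratio of a probe set on one array to that probe set's median over all 44 arrays, so a value of 0 is the median array and a difference of 1 is a doubling. These ratios carry no brightness and no detection call. Whether a gene was silent therefore could not be read from them, and levels were not compared between genes. Differences between groups came from 1 limma fit over all genes and arrays with a term for labelled sex. They are given with their standard error (SE), and a gene is called changed, higher or lower where the Benjamini-Hochberg adjusted p over all 12394 genes was under 0.05. The number of arrays limits the precision.

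The median ratio of an array lay between 0.954 and 1.03, and no value of a member stood at the lowest ratio of the table. The Prkce probe set was higher in PKCε than in FVB/N mice by 0.49 ± 0.15 (SE; adjusted p = 0.00596) under IgG and by 0.41 ± 0.13 (adjusted p = 0.0096) under FG-3149, but that probe set was designed to mouse sequence and the transgene is from rabbit. The mean log2 level of 10 ventricular cardiomyocyte markers was 0.09 in the FVB/N IgG group and -0.16 in the PKCε IgG group, and the mean of 5 fibroblast markers was -0.27 and 0.47. Atrial markers (Sln, Myl7 and Myl4) reached a mean level above 4 on 10 arrays, 5 of them FVB/N IgG, 1 FVB/N FG-3149, 2 PKCε IgG and 2 PKCε FG-3149. Lung surfactant markers were high on 2 PKCε IgG arrays, replicates 9 and 10, and the fits without lung-marker arrays left out only these. The highest mean level of 5 lung markers on an array was 6.23 in the PKCε IgG group. It was 2.65 in the FVB/N IgG group, 1.15 in FVB/N FG-3149 and 0.86 in PKCε FG-3149, and those arrays were kept. The 3′ minus 5′ Gapdh probe set difference, a sign of RNA or labelling quality, was highest in the PKCε IgG group (mean 0.30 ± 0.25, SD) and was -0.04 ± 0.08 in the FVB/N IgG group. The same difference for beta-actin did not separate the genotypes. It was 0.09 ± 0.25 in PKCε IgG and 0.10 ± 0.10 in FVB/N IgG, and -0.05 ± 0.16 in PKCε FG-3149 and -0.06 ± 0.18 in FVB/N FG-3149. Only the Gapdh difference was used as a covariate. Of the 24 female-labelled arrays, 1 FVB/N FG-3149 array (replicate 11) had a level of the Y-linked gene Uty of 3.63, near the lowest male-labelled array at 3.78. In whole-tissue RNA of this kind, fewer cells of a type and less RNA per cell cannot be told apart.

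The first comparison asked how the transgene moved these mRNAs under control antibody. Between the PKCε IgG and FVB/N IgG groups 45 of the 107 members were called, 9 higher and 36 lower, while 42.2% of all 12394 genes were called. The members' share was thus close to that of all genes. By direction they leaned downward, since 20.7% of all genes were higher and 21.5% lower. The median difference over the members was -0.11, against -0.05 over all genes, and 90 of 107 differences were negative. Each gene was read from the probe set that varied most over the arrays, which favours probe sets that differ between groups. Of the 45 called members 14 had more than 1 probe set, and all others had the same sign in 13 of these and were all called in 5.

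Differences of a larger size were more frequent among the cardiac-expressed genes than among the silent families, as a description of these lists. Of the 27 cardiac-expressed genes 3 were higher and 13 lower, with a median difference of -0.20, and 15 had a called difference of at least 0.3 in size while 6 lay under 0.1. Of the 56 silent-family genes 3 were higher and 18 lower, with a median of -0.11, and 9 had a called difference of at least 0.3 while 24 lay under 0.1. Over all genes 42.2% were called, and counts by size were not made for them. The spread over arrays differed in the same way, with a median SD over the 44 arrays of 0.34 among the cardiac-expressed genes, 0.16 among the silent families and 0.22 over all genes. Of the 7 vessel wall or immune cell genes 1 was higher and none lower (median -0.09), and of the 17 other members 2 were higher and 5 lower (median -0.12). Without the 2 arrays with lung markers the count over all members was 31, 7 higher and 24 lower (34.3% of all genes), and without the 10 arrays of high atrial level it was 32, 6 higher and 26 lower (37.4%). With the Gapdh difference as a covariate it was 26, 5 higher and 21 lower (31.3%).

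**Figure D1:**
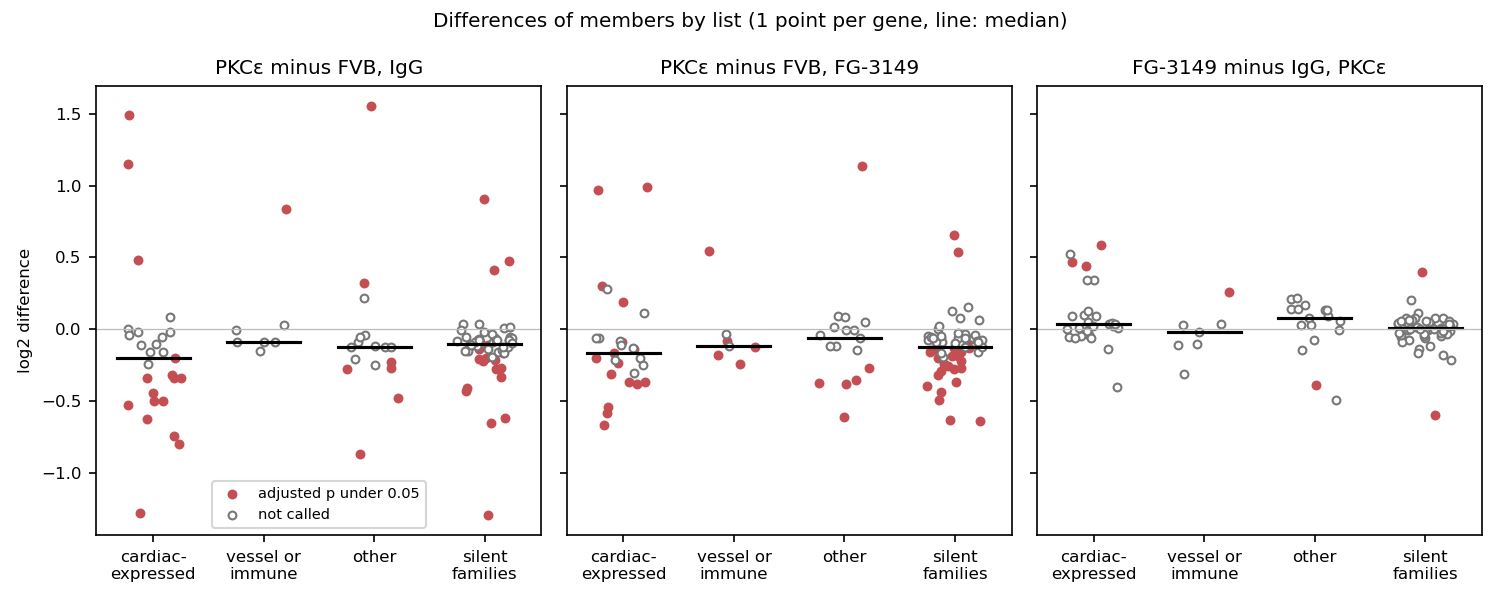
Differences of the 107 members, on the log2 scale, by list (cardiac-expressed 27, vessel or immune 7, silent families 56, other 17), in 3 comparisons: PKCε minus FVB/N under IgG, PKCε minus FVB/N under FG-3149, and FG-3149 minus IgG in PKCε mice. Each point is 1 gene, filled where called, and the line is the list's median; the cardiac-expressed medians are -0.20, -0.17 and 0.03 and those of the silent families -0.11, -0.13 and 0.01.

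Among the connexins, Gjc1 (Cx45) separated the genotypes completely. On the FVB/N IgG arrays its log2 level lay between -0.82 and -0.12 with a median of -0.55, and on the PKCε IgG arrays between 0.25 and 1.03 with a median of 0.68. With FG-3149 it lay between -0.62 and -0.18 in FVB/N (median -0.50) and between 0.11 and 0.77 in PKCε mice (median 0.62). No FVB/N array reached the lowest PKCε array under either antibody. The difference under IgG was 1.15 ± 0.081, or 2.22-fold (adjusted p = 1.43e-14), and it was 1.12 without the arrays of high atrial level.

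The 2 other cardiac connexins did not follow Gjc1. Gja1 (Cx43), the main ventricular connexin, lay between -0.82 and 0.34 in the FVB/N IgG group (median -0.14) and between -1.16 and 0.28 in the PKCε IgG group (median -0.42). The ranges overlapped over most of their length, and the difference of -0.24 was not called (adjusted p = 0.240). Gja5 (Cx40) lay between -0.16 and 1.73 (median 0.15) and between -0.42 and 0.01 (median -0.13), and was called lower by a difference of -0.53 ± 0.14 (adjusted p = 0.00264). Without the arrays of high atrial level the Gja5 difference was -0.18 and was not called (adjusted p = 0.189).

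Gja4 (Cx37), a connexin of arterial endothelium, was higher in the PKCε IgG group by 0.83 ± 0.14, or 1.78-fold (adjusted p = 2.66e-06). Its level lay between -0.50 and 0.45 in the FVB/N IgG group (median -0.11) and between -0.07 and 1.73 in the PKCε IgG group (median 0.49). The array at 1.73 was one of high atrial level. All 10 PKCε arrays were above the FVB/N median and 5 were above every FVB/N array. The mean level of 6 endothelial markers was 0.00 in the FVB/N and 0.06 in the PKCε IgG group.

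**Figure D2:**
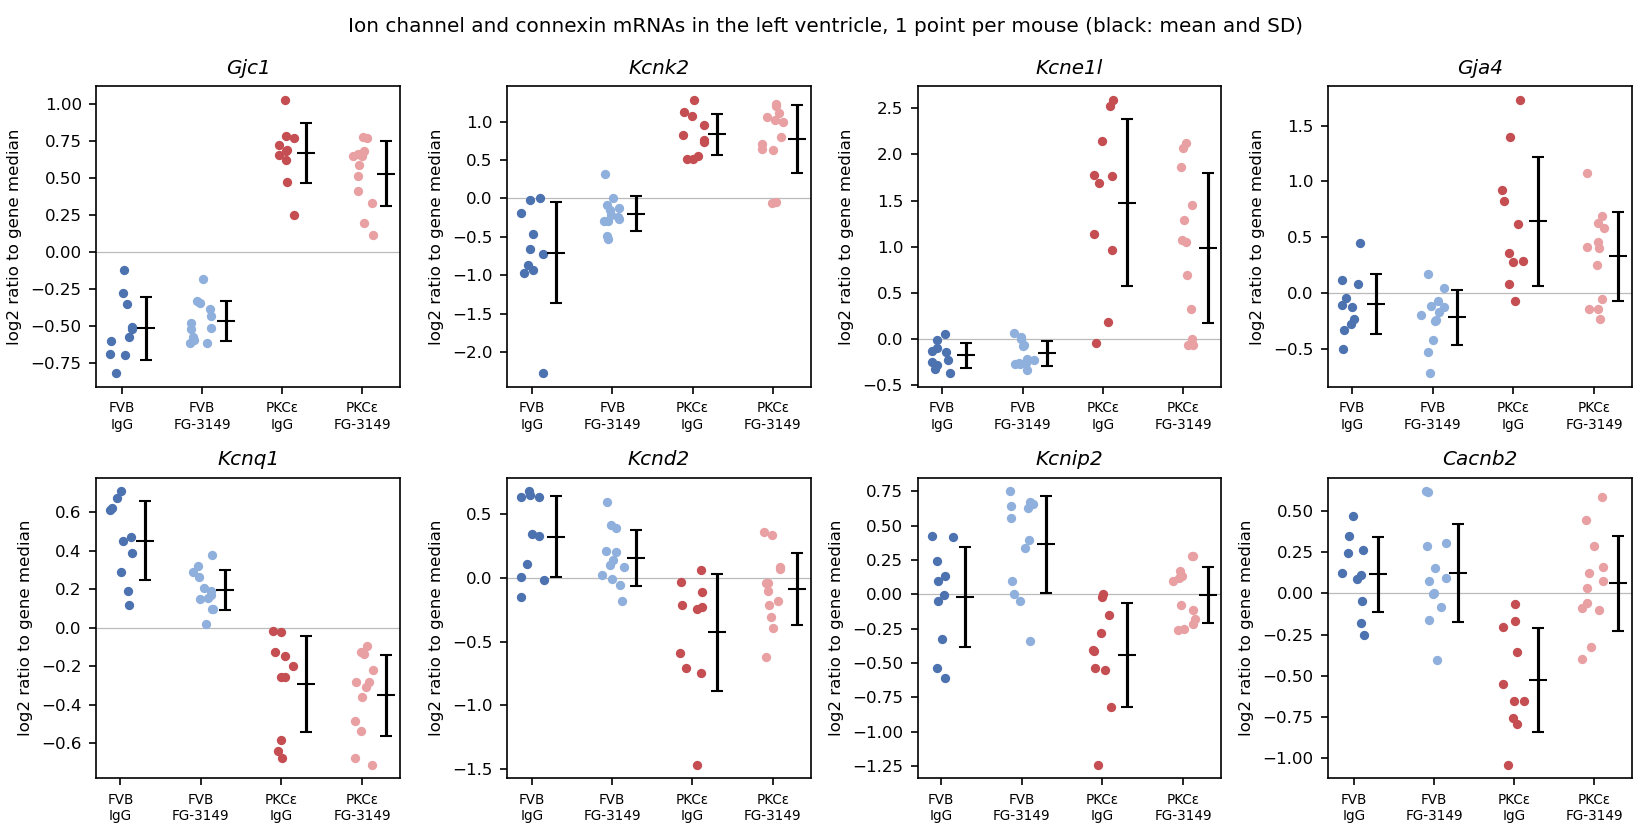
Log2 level of 8 members on each array in the 4 groups, 1 point per mouse, with the group mean and SD. Gjc1 and Kcnq1 separate every PKCε array from every FVB/N array under either antibody, Kcne1l is spread widely within the PKCε groups, and Cacnb2 is low in the PKCε IgG group, where its median is -0.60, and near the FVB/N levels in the PKCε FG-3149 group.

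The list of repolarising potassium channel genes did not rank them by their part in the mouse ventricle, and no currents were measured. Of its 9 measured genes, 6 were called lower and none higher under IgG, beside 21.5% of all genes lower and 20.7% higher. Their median difference was -0.32, and 4 of the 6 calls (Kcnip2, Kcnd3, Kcne1 and Kcnh2) were lost in at least 1 of the fits without the lung-marker arrays, without the arrays of high atrial level or with the Gapdh covariate. Kcnq1, the pore subunit of the slow delayed rectifier, lay between 0.12 and 0.71 in the FVB/N IgG group (median 0.46) and between -0.68 and -0.02 in the PKCε IgG group (median -0.23). All 10 PKCε arrays were below every FVB/N array, and the difference was -0.74 ± 0.088, a 1.67-fold lower level (adjusted p = 5.29e-09). Its accessory subunit Kcne1 was lower by a difference of -0.32 ± 0.10 (adjusted p = 0.0121), from a median of 0.29 to one of -0.07, with overlapping ranges. Kcnh2, the pore subunit of the rapid delayed rectifier, had medians of 0.14 and -0.19 and a difference of -0.34 ± 0.11 (adjusted p = 0.0110).

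Kcnd2 and Kcnip2 encode a pore and an accessory subunit of the same transient outward channel, and both were called lower, so the 250 bases before each RefSeq gene start (build GRCm38.p6) are shown, 5′ to 3′ on the gene's own strand. Capitals mark the GC box GGGCGG, searched on both strands, which 32.7% of 32851 mouse promoters of this length hold. Of the 107 members 86 had a promoter entry. The Kcnd2 window is chr6:21215096-21215345 (plus strand, 68.8% G and C) and holds the box at 166 to 161 bases before the start. The Kcnip2 window is chr19:45816064-45816313 (minus strand, 66.8% G and C) and holds 2, at 87 to 82 and at 17 to 12 bases before the start. The letters TATAAA (12.4% of promoters), GATAA (22.6%) and ACANNTGT (6.31%), searched on both strands, are in neither window.
Kcnd2: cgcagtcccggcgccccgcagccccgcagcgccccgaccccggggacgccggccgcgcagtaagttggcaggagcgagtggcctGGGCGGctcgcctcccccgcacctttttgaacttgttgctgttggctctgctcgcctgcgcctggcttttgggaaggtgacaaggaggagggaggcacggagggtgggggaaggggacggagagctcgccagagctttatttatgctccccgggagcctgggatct
Kcnip2: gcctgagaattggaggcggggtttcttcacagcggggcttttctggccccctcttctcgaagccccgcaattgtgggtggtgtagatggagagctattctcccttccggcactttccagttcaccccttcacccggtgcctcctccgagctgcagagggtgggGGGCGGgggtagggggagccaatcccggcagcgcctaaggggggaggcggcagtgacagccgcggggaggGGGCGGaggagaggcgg

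Kcnd2 lay between -0.15 and 0.68 in the FVB/N IgG group (median 0.34) and between -1.46 and 0.06 in the PKCε IgG group (median -0.24). Of the 10 PKCε arrays 7 were below every FVB/N array, and the difference was -0.80 ± 0.13, a 1.74-fold lower level (adjusted p = 4.94e-06). Its 2 other probe sets gave -0.68 and -0.86, both called. Kcnip2 lay between -0.61 and 0.42 (median 0.05) and between -1.24 and 0.01 (median -0.41), and only 2 PKCε arrays were below every FVB/N array. Its difference was -0.44 ± 0.14 (adjusted p = 0.0121), and its other probe set gave -0.13 (adjusted p = 0.0116).

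The Kcnip2 call moved with the Gapdh difference and the lung markers. With the Gapdh 3′ minus 5′ difference as a covariate it was -0.01 (adjusted p = 0.974), and without the 2 arrays with lung markers -0.33 (adjusted p = 0.0771). Without the arrays of high atrial level it was -0.63 and called (adjusted p = 0.00445). The Kcnd2 difference was -0.94 with the Gapdh covariate and -0.77 without the arrays of high atrial level, called in both. The part of array quality and lung tissue in the Kcnip2 result was not tested beyond these fits.

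Kcnd3, another pore subunit of the transient outward current, was called lower by a smaller difference of -0.20 ± 0.08 (adjusted p = 0.0303). That call was lost with the Gapdh covariate (adjusted p = 0.133) and without the 2 arrays with lung markers (adjusted p = 0.0976), as was that of Kcne1 (adjusted p = 0.153 and 0.0836), and Kcnh2 lost its call without the lung-marker arrays (adjusted p = 0.0694) and without the arrays of high atrial level (adjusted p = 0.0701). The Kcna4, Kcna5 and Kcnab1 differences of -0.06, -0.02 and -0.16 were not called. These genes encode a slowly recovering transient outward pore, the ultrarapid delayed rectifier and a beta subunit.

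**Figure D3:**
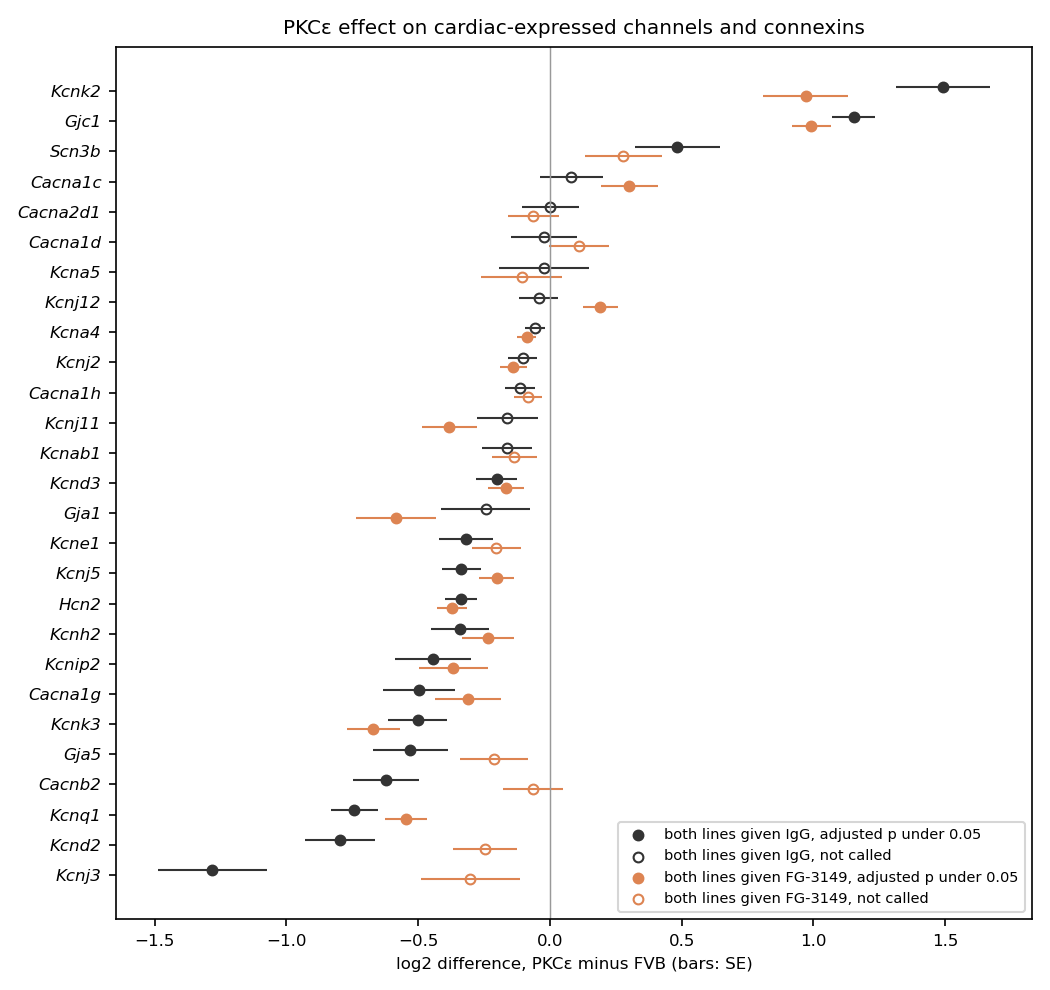
PKCε minus FVB/N difference, on the log2 scale, for the 27 cardiac-expressed members under IgG (black) and under FG-3149 (orange), filled where called, with bars of 1 SE. Gjc1 and Kcnk2 stand on the right under both antibodies, all 9 genes of the repolarising list stand left of 0 under both, and Kcnj3, Kcnd2 and Cacnb2 stand further left under IgG than under FG-3149.

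The inward rectifier and two-pore genes were split. Kcnk2 (TREK-1), a stretch-sensitive background potassium channel, lay between -2.27 and -0.00086 in the FVB/N IgG group (median -0.69) and between 0.51 and 1.28 in the PKCε IgG group (median 0.79). The groups did not overlap, and the difference was 1.49 ± 0.18, or 2.81-fold (adjusted p = 5.85e-09). Kcnk3 (TASK-1), an acid-sensitive member of the same family, moved the other way, from a median of 0.28 (range -0.09 to 0.63) to one of -0.21 (range -0.80 to 0.10). Its difference was -0.50 ± 0.11 (adjusted p = 3.31e-04), and 7 of 10 PKCε arrays were below every FVB/N array. The Kcnk2 value of -2.27 came from FVB/N IgG replicate 2, of atrial level 8.47. Over the 10 arrays of high atrial level, 5 of them FVB/N IgG, Kcnk2 had a median of -0.31, and over the other 34 one of 0.53.

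Kcnj3 and Kcnj5 encode the subunits of the acetylcholine-gated potassium channel, which is most abundant in atrium. Kcnj3 lay between -0.02 and 2.35 in the FVB/N IgG group (median 0.23) and between -1.07 and -0.09 in the PKCε IgG group (median -0.66). The groups did not overlap, and the difference was -1.28 ± 0.21 (adjusted p = 2.73e-06). Kcnj5 had medians of 0.09 and -0.24 and a difference of -0.34 ± 0.074 (adjusted p = 2.59e-04), and 9 of 10 PKCε arrays were below every FVB/N array. Kcnj2, Kcnj12 and Kcnj11, the pores of the classical inward rectifier and of the sarcolemmal ATP-sensitive channel, had differences of -0.10, -0.04 and -0.16 that were not called.

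The atrial markers bear on the size of the Kcnj3 difference. Over the 10 arrays of high atrial level Kcnj3 lay between -0.60 and 2.35 with a median of 0.42, and over the other 34 between -1.07 and 0.40 with a median of -0.05. On the remaining 5 FVB/N IgG arrays it lay between -0.02 and 0.20, and on the remaining 8 PKCε IgG arrays between -1.07 and -0.15. These still did not overlap, and the fit without the 10 arrays gave -0.78 (adjusted p = 6.69e-06). The Kcnj5 difference without them was -0.38 and called.

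**Figure D4:**
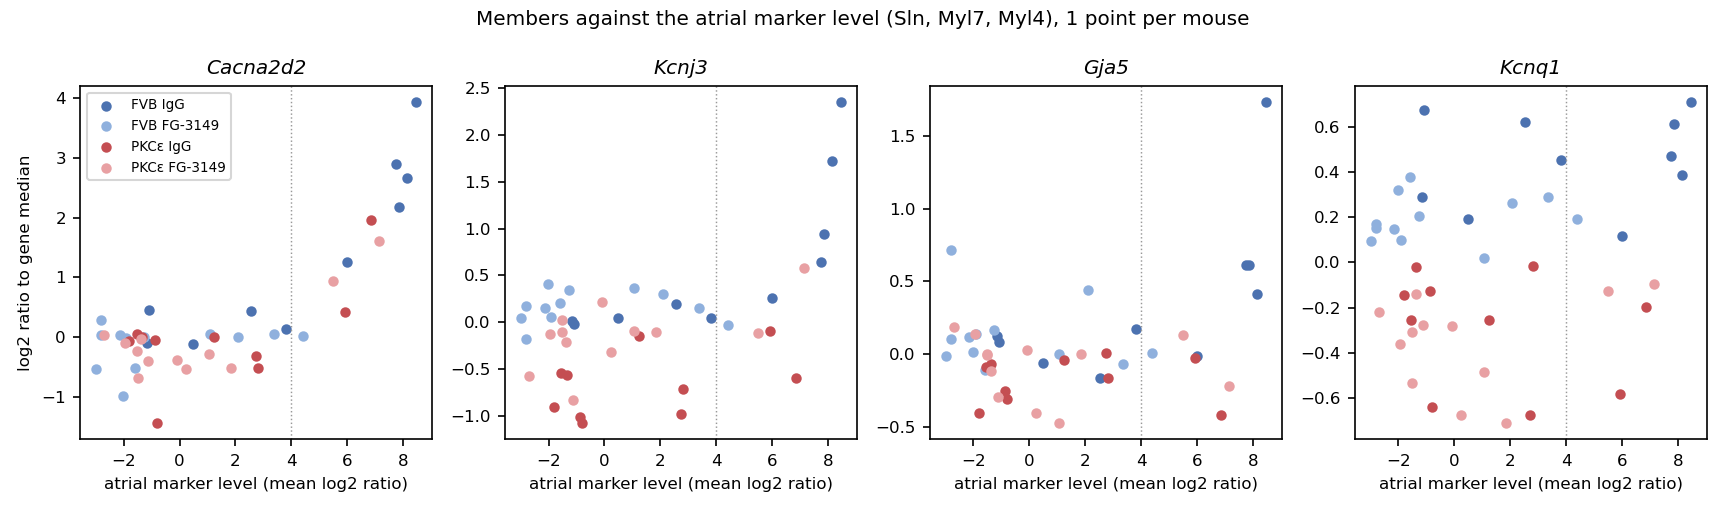
Log2 level of Cacna2d2, Kcnj3, Gja5 and Kcnq1 on each of the 44 arrays against the mean log2 level of the atrial markers Sln, Myl7 and Myl4, coloured by group, with a dotted line at 4. The 10 arrays right of the line include the highest Cacna2d2, Kcnj3 and Gja5 values (3.93, 2.35 and 1.73), while the Kcnq1 levels are ordered by genotype on both sides of it.

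Of the 6 cardiac-expressed calcium channel genes 2 were called under IgG, both lower, a share near the 42.2% of all genes. Cacnb2, the beta subunit that brings L-type pores to the membrane, lay between -0.25 and 0.47 in the FVB/N IgG group (median 0.12) and between -1.04 and -0.06 in the PKCε IgG group (median -0.60). Of the PKCε arrays 7 were below every FVB/N array, and the difference was -0.62 ± 0.13 (adjusted p = 8.45e-05). Cacna1g, a T-type pore of pacemaker and conduction cells, had medians of 0.19 and -0.42 with wide overlap and a difference of -0.50 ± 0.14 (adjusted p = 0.00337). Cacna1c, the ventricular L-type pore, had medians of -0.20 and -0.15 and a difference of 0.08 that was not called (adjusted p = 0.589), and Cacna1d, Cacna1h and Cacna2d1 lay between -0.11 and 0.00. The other probe set of Cacna2d1, an auxiliary subunit, was called higher under IgG by 0.25, so its probe sets disagreed.

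Hcn2, the only pacemaker channel gene of the list that was measured, was lower by a difference of -0.34 ± 0.062 (adjusted p = 2.01e-05). Its medians were 0.21 and -0.18 and its ranges overlapped between -0.18 and 0.01. Scn3b, a sodium channel beta subunit and the one measured sodium channel gene of the cardiac list, was called higher by 0.48 ± 0.16 (adjusted p = 0.0145). Its ranges of -0.68 to 0.69 and -0.25 to 1.73 overlapped, its other probe set was lower (-0.14, adjusted p = 0.00415), and without PKCε IgG replicate 9 the difference was 0.34 and not called (adjusted p = 0.0554). It was likewise 0.24 and not called without both lung-marker arrays (adjusted p = 0.186) and 0.32 and not called with the Gapdh covariate (adjusted p = 0.208).

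Outside the cardiac list the largest rise was that of Kcne1l (now named Kcne5), a small accessory subunit that modulates Kcnq1 and Kcnd channels. It lay between -0.37 and 0.05 in the FVB/N IgG group (median -0.18) and between -0.04 and 2.59 in the PKCε IgG group (median 1.73). All but 1 of the 10 PKCε arrays were above every FVB/N array, and the difference was 1.55 ± 0.24, or 2.93-fold (adjusted p = 1.63e-06). The SD within the PKCε IgG group was 0.90, and within the FVB/N IgG group 0.14. Kcne4, another member of that family, was called higher by 0.32 ± 0.12 (adjusted p = 0.0289), with a range of -0.47 to 1.44 in the PKCε IgG group around that of the FVB/N IgG group (-0.27 to 0.40). The Kcne4 call was lost on leaving out any 1 of the 4 arrays FVB/N IgG 4 and 10 and PKCε IgG 6 and 9, and in males alone the difference was -0.05.

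Kcnk1 (TWIK-1), a weakly rectifying background potassium channel, had medians of 0.23 and -0.23 and no overlap between the groups, with a difference of -0.87 ± 0.17 (adjusted p = 5.69e-05). Its other probe set gave -0.28 and was not called (adjusted p = 0.0541). Kcnn2, a small-conductance calcium-activated channel, was lower by a difference of -0.48 ± 0.10 (adjusted p = 1.25e-04), with medians of 0.23 and -0.24.

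In the silent families the called genes included nerve and skeletal muscle forms. Kcnj14, an inward rectifier best known from brain, was higher by 0.90 ± 0.17 (adjusted p = 2.78e-05), with a range of -0.79 to 0.13 in the FVB/N and -0.01 to 1.36 in the PKCε IgG group. Cacna1s, the skeletal muscle L-type pore, was higher by 0.48 ± 0.13 (adjusted p = 0.00261), with ranges of -0.80 to 0.00 and -0.71 to 0.72. It was not called without the arrays of high atrial level (0.41, adjusted p = 0.0626) or with the Gapdh covariate (0.39, adjusted p = 0.0532).

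Cacna2d2, Kcna1, Scn10a, Kcnn1 and Kcnh3 of the silent families were called lower. Cacna2d2, an auxiliary calcium channel subunit, lay between -0.13 and 3.93 in the FVB/N IgG group (median 0.85) and between -1.44 and 1.96 in the PKCε IgG group (median -0.03), a difference of -1.29 ± 0.38 (adjusted p = 0.00594). The 2 other Cacna2d2 probe sets gave differences of -0.21 and -0.16, and 1 of them was called. Without the arrays of high atrial level the difference of -1.29 became -0.43 and was not called (adjusted p = 0.0760). Scn10a, a sodium channel of sensory and intracardiac neurons, had medians of 0.25 and -0.25 and a difference of -0.62 ± 0.13 (adjusted p = 1.00e-04), and without those arrays it was -0.33 and not called (adjusted p = 0.0578). Kcna1, an axonal delayed rectifier, had a difference of -0.66 ± 0.13 (adjusted p = 5.93e-05) from a median of 0.39 to one of -0.15. Kcnn1, another small-conductance channel, and Kcnh3, a brain channel, had differences of -0.41 and -0.28.

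Of the 7 vessel wall or immune cell genes, Gja4 was the one called. Kcnj8, the pore of the ATP-sensitive channel of smooth muscle and pericytes, lay between -1.07 and 0.25 in the FVB/N IgG group (median -0.19) and between -0.83 and 0.14 in the PKCε IgG group (median -0.27). The ranges overlapped almost wholly and the difference was -0.09 (adjusted p = 0.387), and without FVB/N IgG replicate 2, the lowest array of its group, it was -0.17 and called (adjusted p = 0.0301). That array also had the highest atrial marker level of all arrays, 8.47. Kcnma1, Kcnmb1, Kcnn3, Kcnn4 and Kcna3 lay between -0.15 and 0.03 and were not called. The other probe sets of Kcnma1 and Kcnmb1, the pore and beta subunit of the large-conductance calcium-activated channel, were called lower, at -0.14 and -0.19.

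Genes that work with these channels were read from 3 lists. Of 12 measured channel partners 1 was higher and 6 lower, with a median of -0.22, beside 20.7% of all genes higher and 21.5% lower. Abcc8, a sulphonylurea receptor that can join Kcnj11, was lower by a difference of -0.90 ± 0.12 with no overlap between the groups (adjusted p = 1.02e-07). Fgf13, a regulator of sodium channel gating, had a difference of -0.62 ± 0.11 (adjusted p = 1.39e-05), and Abcc9, a sulphonylurea receptor that can join Kcnj8, one of -0.41 ± 0.11 (adjusted p = 0.00329). Akap9, which anchors kinases to Kcnq1, was the one higher, by 0.41 ± 0.083 (adjusted p = 9.58e-05), and was 0.22 and not called with the Gapdh covariate (adjusted p = 0.0539). The Abcc8 difference without the arrays of high atrial level was -0.68 and that of Abcc9 -0.66, both called.

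Of 11 intercalated disc genes 1 was higher and 3 lower (median -0.11), a share near the 42.2% of all genes called. The desmosomal cadherins Dsg2 and Dsc2 were lower by differences of -1.22 ± 0.12 (adjusted p = 9.25e-11) and -0.98 ± 0.11 (adjusted p = 2.13e-09), each with all 10 PKCε IgG arrays below every FVB/N IgG array. Jup (plakoglobin) was higher by 0.46 ± 0.11 (adjusted p = 6.28e-04), which was 0.29 and not called with the Gapdh covariate (adjusted p = 0.0768), and Tjp1 (ZO-1), a binding partner of Cx43, had a difference of -0.12 ± 0.036 (adjusted p = 0.00706).

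Of 7 conduction and patterning factors 2 were higher and 1 lower (median 0.02), again a share near the 42.2% of all genes. Irx3 and Irx5 are Iroquois factors of the ventricular conduction system and of the transmural gradient of Kcnd2. Irx3 lay between -2.37 and -0.01 in the FVB/N IgG group (median -0.53) and had a median of 0.39 in the PKCε IgG group, whose 10 arrays all lay above every FVB/N IgG array. Its difference was 1.03 ± 0.16 (adjusted p = 8.28e-07). Irx5 had a difference of 0.81 ± 0.14 (adjusted p = 7.13e-06) with no overlap (medians -0.26 and 0.32). Tbx5, a factor of atrial and conduction tissue, was lower by a difference of -0.97 ± 0.20 (adjusted p = 1.66e-04). On the arrays of lower atrial level these differences were smaller and still called, 0.69 for Irx3, 0.53 for Irx5 and -0.48 for Tbx5.

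The same transgene comparison under FG-3149 used the other 24 mice and shares no array with the one under IgG. It called 54 of 107 members, 8 higher and 46 lower, while 47.0% of all genes were called (21.5% higher and 25.5% lower). The members' median was -0.12 against -0.05 over all genes. Of the cardiac-expressed genes 4 were higher and 12 lower (median -0.17), and of the silent families 2 were higher and 25 lower (median -0.13).

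Of the members 28 were called in both transgene comparisons, which is 62.2% of the 45 under IgG and 51.9% of the 54 under FG-3149, and all 28 had the same direction in both (6 higher and 22 lower). Over all genes 3519 were called in both, 67.2% and 60.4% of the 2 lists, and 3461 of them had the same direction. Gjc1 (0.99 ± 0.074, adjusted p = 8.59e-14), Kcnk2 (0.97 ± 0.16) and Kcne1l (1.14 ± 0.22) were again higher, and for Gjc1 all 12 PKCε FG-3149 arrays were above every FVB/N FG-3149 array. Kcnq1 was again lower, with a difference of -0.54 ± 0.080 (adjusted p = 4.86e-07), and lay between 0.02 and 0.38 in FVB/N and between -0.71 and -0.10 in PKCε mice, without overlap.

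Kcnk3 (-0.67 ± 0.10, adjusted p = 8.25e-07), Hcn2 (-0.37 ± 0.055, adjusted p = 7.78e-07) and Kcnip2 (-0.37 ± 0.13, adjusted p = 0.0201) were again lower. For Hcn2 11 of 12 PKCε arrays were below every FVB/N array, while the Kcnip2 call was absent with the Gapdh covariate (-0.16, adjusted p = 0.214). Gja1 was called lower here, with a difference of -0.58 ± 0.15 (adjusted p = 0.00192). Its 5 other probe sets lay between -0.12 and -0.07 and none was called. Cacna1c was called higher by 0.30 ± 0.11 (adjusted p = 0.0206), which was lost without PKCε FG-3149 replicate 3 (0.24).

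The next comparison asked what the CTGF antibody moved in the transgenic ventricle. It shares the PKCε IgG arrays with the first comparison, so the 2 sets of differences are not independent of each other. Between the PKCε FG-3149 and PKCε IgG groups 7 of 107 members were called, 5 higher and 2 lower, while 8.82% of all genes were called (5.08% higher and 3.74% lower). The members' median was 0.02 and that of all genes 0.02. Of the cardiac-expressed genes 3 were higher and none lower, of the silent families 1 was higher and 1 lower. With quantile normalisation 6 were called, 5 higher and 1 lower. Without the 2 lung-marker arrays 2 were called, with the Gapdh covariate 3, and in males alone 0 (10 at an unadjusted p under 0.05 in limma).

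The ventricular L-type pore gene and its beta subunit gene were higher with FG-3149. Cacnb2 lay between -1.04 and -0.06 with IgG (median -0.60) and between -0.40 and 0.58 with FG-3149 (median 0.05), and its difference was 0.58 ± 0.12, or 1.5-fold (adjusted p = 0.00134). All 12 FG-3149 arrays were above the IgG median and 8 were above every IgG array. Cacna1c lay between -0.54 and 0.37 (median -0.15) and between -0.05 and 0.95 (median 0.34), and its difference was 0.47 ± 0.11, or 1.38-fold (adjusted p = 0.00631). All 12 FG-3149 arrays were above the IgG median and 5 above every IgG array.

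These 2 calls held without the 2 arrays with lung markers (0.49 and 0.42) and without the arrays of high atrial level (0.49 and 0.44). With the Gapdh covariate Cacna1c was 0.46 and called and Cacnb2 was 0.42 and not called (adjusted p = 0.0524). The Gapdh difference averaged 0.04 in the PKCε FG-3149 group, and its part in the Cacnb2 result was not tested further.

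The 5 other calls were less stable. Kcnip2 was higher by 0.44 ± 0.14 (adjusted p = 0.0355), from a median of -0.41 to one of 0.01, and 6 of 12 FG-3149 arrays were above every IgG array. Its other probe set gave 0.01, and leaving out single arrays ended the call for 9 of them, with differences of 0.35 to 0.43. With the Gapdh covariate the difference was 0.11 (adjusted p = 0.721). Cacna1s was higher by 0.40 ± 0.12 (adjusted p = 0.0315), Kcnj14 had a difference of -0.60 ± 0.16 (adjusted p = 0.0131) and Kcne4 one of -0.39 ± 0.11 (adjusted p = 0.0249). None of Kcnip2, Cacna1s, Kcnj8, Kcnj14 and Kcne4 was called without the 2 lung-marker arrays, at adjusted p = 0.184, 0.0868, 0.123, 0.101 and 0.131.

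Among the genes with large transgene effects none of the following was called for the antibody. The FG-3149 minus IgG difference in PKCε mice was -0.14 for Gjc1 (adjusted p = 0.30), -0.06 for Kcnq1 (adjusted p = 0.748), -0.06 for Kcnk2, -0.49 for Kcne1l (adjusted p = 0.196) and -0.31 for Gja4 (adjusted p = 0.121). Kcnd2 had a difference of 0.34 (adjusted p = 0.0870), and its 2 other probe sets gave 0.45 and 0.48, both called (adjusted p = 0.0119 and 0.0121). Kcnj3 had one of 0.53 (adjusted p = 0.0870).

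The antibody was also compared between the FVB/N groups, which share the FVB/N IgG arrays with the first comparison. It called 6 of 107 members, 3 higher and 3 lower, while 9.0% of all genes were called (4.43% higher and 4.57% lower). Adipocyte and atrial markers moved in the same comparison: all 3 measured adipocyte markers and all 3 atrial markers were lower with FG-3149, and the median of the atrial markers' differences was -4.92.

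Kcnj8 was the member with the lowest p among them. It lay between -1.07 and 0.25 with IgG (median -0.19) and between 0.01 and 0.36 with FG-3149 (median 0.23), and the difference was 0.41 ± 0.079, or 1.33-fold (adjusted p = 6.31e-04). All 12 FG-3149 arrays were above the IgG median and 5 were above every IgG array. Without the arrays of high atrial level it was 0.28 and called (adjusted p = 0.0311). In PKCε mice the Kcnj8 difference was 0.26 ± 0.079 (adjusted p = 0.0301), from a range of -0.83 to 0.14 to one of -0.24 to 0.14. It was not called there without PKCε IgG replicate 6 (0.23) or 9 (0.21), or with the Gapdh covariate (0.24, adjusted p = 0.134).

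Abcc9, a receptor subunit gene whose product can pair with Kcnj8, was also called higher with the antibody in each genotype. So was Rgs5, 1 of 7 smooth muscle and pericyte markers. Abcc9 was higher by 0.36 ± 0.11 in FVB/N (adjusted p = 0.0286) and by 0.38 ± 0.11 in PKCε mice (adjusted p = 0.0208). It was not called without the arrays of high atrial level in FVB/N (0.08, adjusted p = 0.828) or without the lung-marker arrays in PKCε mice (0.32, adjusted p = 0.10). Rgs5 was higher by 0.70 ± 0.12 in FVB/N (adjusted p = 1.19e-04), where all 12 FG-3149 arrays were above every IgG array, and by 0.52 ± 0.12 in PKCε mice (adjusted p = 0.00348). On leaving out the arrays of high atrial level it was 0.55 and 0.61, both called, and with the Gapdh covariate it was 0.31 in PKCε mice and not called (adjusted p = 0.143). The mean of the 7 smooth muscle and pericyte markers went the other way, from 0.19 to -0.09 in FVB/N and from 0.09 to 0.03 in PKCε mice. The part of cell numbers in the Kcnj8 result was not tested.

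**Figure D5:**
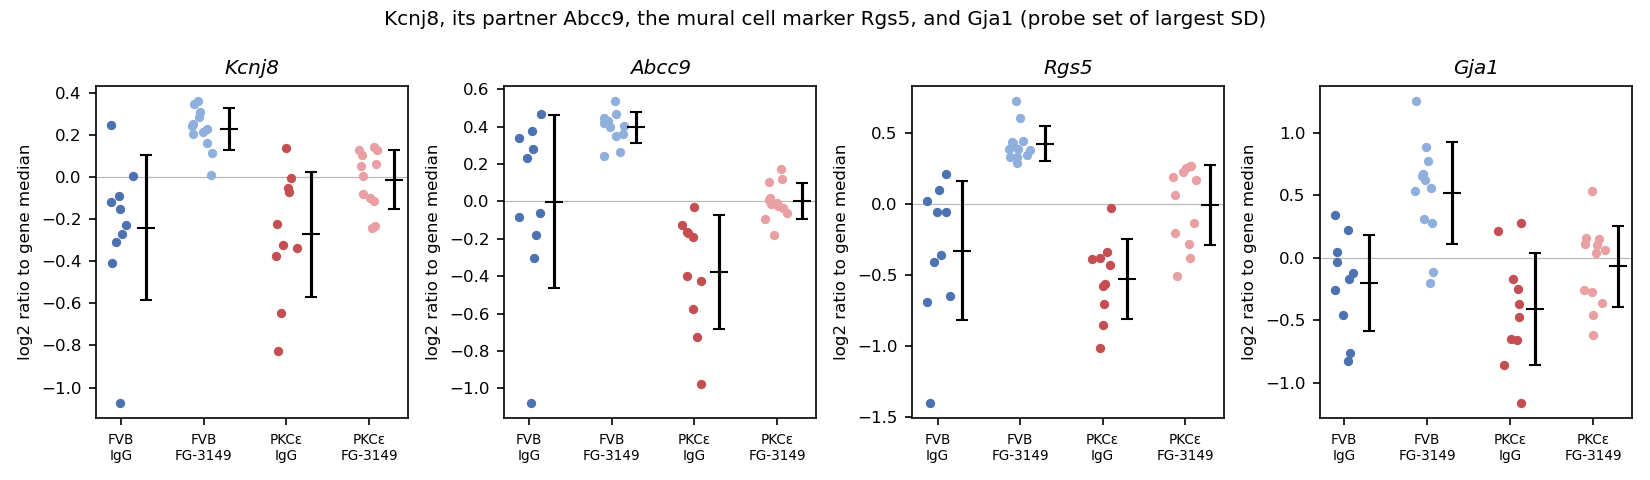
Log2 level of Kcnj8, Abcc9, Rgs5 and Gja1 on each array in the 4 groups, 1 point per mouse, with the group mean and SD. The FVB/N FG-3149 group is the highest in all 4 panels, with means of 0.23, 0.40, 0.43 and 0.52, and the means of the PKCε FG-3149 group lie above those of the PKCε IgG group. Rgs5 is 1 of 7 smooth muscle and pericyte markers, whose mean was lower with FG-3149 than with IgG in both genotypes.

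Gja1 (Cx43) was higher with FG-3149 in FVB/N mice by 0.68 ± 0.16, or 1.61-fold (adjusted p = 0.00504). It lay between -0.82 and 0.34 with IgG (median -0.14) and between -0.20 and 1.25 with FG-3149 (median 0.59), and 8 of 12 FG-3149 arrays were above every IgG array. The call belongs to 1 probe set of 6. The 5 others gave differences of 0.05 to 0.07 and none was called. Without the arrays of high atrial level the difference was 0.63 and not called (adjusted p = 0.111).

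Kcnj12, an inward rectifier pore, was lower by a difference of -0.29 ± 0.070 (adjusted p = 0.00641), from a median of 0.04 to one of -0.14, and was -0.36 and called without the arrays of high atrial level. Kcnq1 was lower by a difference of -0.26 ± 0.085 (adjusted p = 0.0478), which leaving out single arrays ended for 23 of the 44 (differences of -0.27 to -0.23). Gjb2 (Cx26), an epithelial connexin, was higher by 0.18 (adjusted p = 0.0484). Cacna2d2 was lower by a difference of -1.43 ± 0.37 (adjusted p = 0.00937), but its 2 other probe sets gave 0.04 each, and without the arrays of high atrial level it was -0.27 (adjusted p = 0.636).

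Whether the antibody effect differed between the genotypes was tested directly, and the same contrast tests whether the transgene effect differed between the antibodies. It called 3 of 107 members, 2 higher and 1 lower, while 3.86% of all genes were called (2.09% higher and 1.78% lower). Kcnj3 had a difference of differences of 0.98 ± 0.28 (adjusted p = 0.0374), Cacnb2 one of 0.56 ± 0.17 (adjusted p = 0.0491) and Kcnj14 one of -0.78 ± 0.23 (adjusted p = 0.0406). All 3 lay close to the threshold: leaving out each of the 44 arrays in turn ended the call for 9, 33 and 20 of them. For Kcnj3 it was 0.66 and not called with the atrial level as covariate (adjusted p = 0.155) and 0.35 without the arrays of high atrial level (adjusted p = 0.357). Quantile normalisation left 1 call, higher, and array median centring 2, 1 higher and 1 lower.

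Where one antibody or genotype passed the threshold and the other did not, the difference itself was mostly not called. This held for Kcnd2 (0.55 ± 0.18, adjusted p = 0.0765), Gja1 (-0.34, adjusted p = 0.509), Cacna1c (0.22, adjusted p = 0.566), Kcnip2 (0.08, adjusted p = 0.910) and Kcne4 (-0.24, adjusted p = 0.518). The corresponding values were -0.16 for Gjc1 (adjusted p = 0.525), 0.20 for Kcnq1 (adjusted p = 0.447) and -0.15 for Kcnj8 (adjusted p = 0.577).

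Sex was a term of the fit and gave its own comparison. Between female-labelled and male-labelled mice 13 of 107 members were called, 3 higher and 10 lower in females, while 15.8% of all genes were called (8.67% higher and 7.12% lower). Cacna1g was higher in females by 0.51 ± 0.094 (adjusted p = 2.04e-04), Gja4 by 0.48 ± 0.092 (adjusted p = 3.69e-04) and Scn3b by 0.33 ± 0.11. Kcnj8 was lower by a difference of -0.28 ± 0.056 (adjusted p = 5.23e-04) and Kcnn2 by one of -0.29 ± 0.068 (adjusted p = 0.00288). Without the female-labelled array with a high Uty level 14 members were called, 3 higher and 11 lower, and Cacna1g was higher by 0.53. Most arrays of high atrial level and both lung-marker arrays were labelled female. Without the arrays of high atrial level 9 members were called, 2 higher and 7 lower (9.47% of all genes). Without the lung-marker arrays 8 were called, 2 higher and 6 lower (12.0%). The part of atrial or lung tissue in the sex differences was not tested further.

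The transgene effect under IgG was also compared between the sexes. Gja4 averaged 1.10 ± 0.45 (SD) in the 5 females and 0.19 ± 0.18 in the 5 males of the PKCε IgG group, and -0.03 and -0.24 in the females and males of the FVB/N IgG group. The PKCε IgG females were replicates 6 to 10, which include both lung-marker arrays and replicate 6, of atrial level 6.86. Among the males replicate 5 had an atrial level of 5.92. All FVB/N IgG arrays of high atrial level were female. In the test of that difference, 0 of 107 members were called by limma and 13 had an unadjusted p under 0.05, while 0.0807% of all genes were called. The Gja4 difference between the sexes was 0.70 ± 0.25 (adjusted p = 0.421) and that of Kcnj3 -1.28 ± 0.39 (adjusted p = 0.317). The FVB/N IgG group held 3 males.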

How the data were processed

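Total RNA (250 ng) from 44 left ventricles was labelled and hybridised, 1 mouse per array. Per the labels and the series text, the authors processed the arrays by GCRMA and rescaled each probe set to its median in GeneSpring GX 7.3.1, and the deposited value is that ratio. Every probe set median was within 0.001 of 1. Of 22690 probe sets 20393 matched 1 gene in the platform annotation, 691 several and 1606 none, and only the first were used. Each gene was read from its most variable probe set (by SD across the 44 arrays); 35 of the 107 members had more than 1, from 156 in all.

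The log2 ratios were fitted with limma 3.58.1 (R 4.3.3; lmFit and eBayes, two-sided, Benjamini-Hochberg over 12394 genes), with 4 group means and labelled sex; the sex interaction used 8 means of group and sex. The fit was tested on simulated data. Alternatives changed the normalisation, filters, probe set rule, threshold, covariates and arrays kept. Members, gene lists and tests were chosen with earlier results of these data known. Genes named were the 4 marker genes, all cardiac-expressed and vessel wall members, up to 8 further called members with the lowest p in the PKCε IgG minus FVB/N IgG and PKCε FG-3149 minus PKCε IgG comparisons, up to 4 with the lowest p in each other comparison, and up to 4 partner genes per list. Gjb2, Rgs5 and the genes used to check the samples were named outside this rule. Promoter sequences are from RefSeq (GRCm38.p6). Probe set coordinates were not used here.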

Additional observations from a re-analysis of the deposited data

Results flagged for a closer look

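In groups of 10 arrays, the highest or lowest array of a named member stood apart by Dixon's criterion in 14 of 92 sets tested over 46 members; chance marks about 1 in 20. Of these 14, 6 fell on FVB/N IgG replicate 2, which was the lowest of its group for Kcnk2 (-2.27), Kcna5 (-1.48), Kcnj8 (-1.07) and Cacna1a (-0.11) and the highest for Gja5 (1.73) and Cacna1d (0.82). That array had the highest atrial marker level of all arrays, 8.47. The part of atrial tissue in these values was not tested. FVB/N IgG replicate 10 was the highest for Kcnj5 (0.62).

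In the PKCε IgG group replicate 3 was the highest for Kcnj5 (0.36), Scn10a (0.29) and Kcnn3 (0.16). Replicate 9, 1 of the 2 arrays with lung markers, was the lowest for Kcnd2 (-1.46) and the highest for Kcnn4 (0.65). Replicate 1 was the highest for Kcnab1 (0.56) and replicate 2 for Kcnd3 (0.33).

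The test of the difference between the genotypes' antibody effects called Kcnj3 (0.98), Kcnj14 (-0.78) and Cacnb2 (0.56). None of the 3 was called with the atrial covariate, without the arrays of high atrial level or without the lung-marker arrays; without the high-atrial arrays Kcnj3 was 0.35, Kcnj14 -0.85 and Cacnb2 0.59.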

How the results depend on the processing

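Among the alternatives run, these counts of called members moved by over 1.5 times. For PKCε minus FVB/N under IgG, 45 became 14 in males only, 27 at a threshold of 0.01 and 26 with the Gapdh covariate; under FG-3149, 54 became 35 in females only, 26 in males only and 34 at 0.01. For FG-3149 minus IgG in PKCε mice, 7 became 0 in males only (10 at unadjusted p under 0.05 in limma), 2 at 0.01, 3 with the Gapdh covariate and 2 without the lung-marker arrays. In FVB/N mice 6 became 3 in females only, 0 in males only (15 unadjusted), 3 with the atrial covariate and 2 without the arrays of high atrial level. For the difference of antibody effects, 3 became 1 with quantile normalisation and 0 in females only (13 unadjusted), in males only (11), at 0.01, with the atrial covariate (12), without the high-atrial arrays (9) and without the lung-marker arrays (10). The sex count of 13 became 6 at 0.01 and 8 without the lung-marker arrays, and the sex interaction count of 0 became 2 without the high-atrial arrays.

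Leaving out 1 array at a time gave 35 to 53, 3 to 8, 4 to 10, 43 to 59, 0 to 3, 10 to 15 and 0 to 0 calls for the transgene under IgG, the antibody in PKCε and in FVB/N mice, the transgene under FG-3149, the antibody difference, sex and the sex interaction. Some directions turned: Kcne4 under IgG in males only (-0.054), and, with the probe set of smallest SD, Scn3b under IgG (-0.14) and Cacna2d2 with the antibody in FVB/N mice (0.042). The cause was not tested.

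Replicate numbers did not pair the mice: the median correlation of deviations over 62 same-numbered pairs was -0.0025, and 15 were over 0.1. With the replicate number as a block the counts were 44, 5, 4, 50, 1, 10 and 0 in the order above.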
